A study of Mus musculus with 24 samples.

Results

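The genes described here are those of the urocortin and corticotropin-releasing hormone (CRH) system. These are the 4 peptide ligands Crh, Ucn, Ucn2 and Ucn3, the secreted binding protein Crhbp and the receptors Crhr1 and Crhr2. The 7 genes were chosen by their membership of this family after the change of Ucn2 in glia had been seen, so that the values of Ucn2 in KA and SH glia are given as a description without a test. All 7 were found among the 53379 genes of the count table, and all 7 were among the 37598 genes that passed the filter on low counts.

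The study injected kainic acid (KA, an agonist of kainate-type glutamate receptors that elicits status epilepticus) or saline (sham, SH) into the deep cortex next to the right hippocampus of male C57/BL6N mice, 8 weeks old before 4 weeks of acclimatisation. Right hippocampi were taken at 24 hours, and nuclei were sorted by an antibody against NeuN, a nuclear protein of mature neurons, into NeuN+ nuclei (neurons) and NeuN- nuclei (glia). KA and SH animals shared the craniotomy, the anaesthesia and the buprenorphine, and KA animals without convulsive seizures were left out of the study. Each of the 4 groups held 3 libraries of pooled mice, 8 mice per treatment, and the neurons and glia of a given replicate came from the same pool. NeuN- nuclei hold every cell without NeuN, so that the glia are a mixture of astrocytes, oligodendrocytes, microglia and cells of vessels and membranes.

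Peptides of the CRH family act on receptors of class B1 of the G protein-coupled receptors, which mainly raise cyclic AMP. Crhr1 binds Crh and Ucn, Crhr2 binds the urocortins with a preference for Ucn2 and Ucn3, and Crhbp captures Crh and Ucn outside the cell. Crh is best known as the hypothalamic start of the stress hormone axis, and in the hippocampus it is made mainly by interneurons.

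Total counts per library ranged from 7769400 to 40364768. In every group replicate 3 had the fewest genes with a count, at 36165 to 42160 genes. According to the paper, mRNA libraries were sequenced on different instruments, as single reads or as paired ends. The instrument was not part of any fit, and its part in differences between replicates was not tested. The marker genes of the sort followed the labels, since all 8 neuronal markers were higher in NeuN+ nuclei, while every one of the astrocytic, oligodendrocytic and OPC (oligodendrocyte precursor) markers was lower there. SH glia replicate 1 and KA glia replicate 2 were amplified from about 0.05 ng RNA with 15 PCR cycles, all other libraries from 1 ng with 10 cycles. Levels are given as CPM (counts scaled to a common library total) after scaling by the trimmed mean of M values (TMM), and changes as the log2 fold change (logFC) of KA over SH with its standard error (SE). Where a p value adjusted for all 37598 genes (FDR) is given, it comes from edgeR's quasi-likelihood test with the threshold of 0.25 for KA against SH and 0.05 for neurons against glia.

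Of the 5 genes with a promoter sequence in the RefSeq table (Ucn, Ucn3, Crhbp, Crhr1 and Crhr2), Ucn held a full cyclic AMP response element, the letters to which CREB, a factor driven by cyclic AMP, binds. It is shown because it was the match found among the windows searched, 250 bases upstream of each start. The stretch lies at chr5:31138921-31138950 of GRCm38.p6 on the minus strand, with the element in capitals:
Ucn: atgttcttcgcTGACGTCAgtcggagctgt
The capitals span positions -44 to -37 from the RefSeq transcript start of that table, which lies upstream of the end of Ucn in the GENCODE annotation given further on. The letters TGACGTCA, which read the same on both strands, were present in 1.55% of 32851 mouse promoters of the same length. The AP-1 letters TGANTCA, searched on both strands and not overlapping with these, were present in 6.75% of promoters and in none of the 5 windows. A match is a description of the letters, and the level of Ucn itself was low in every group.

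**Figure D1:**
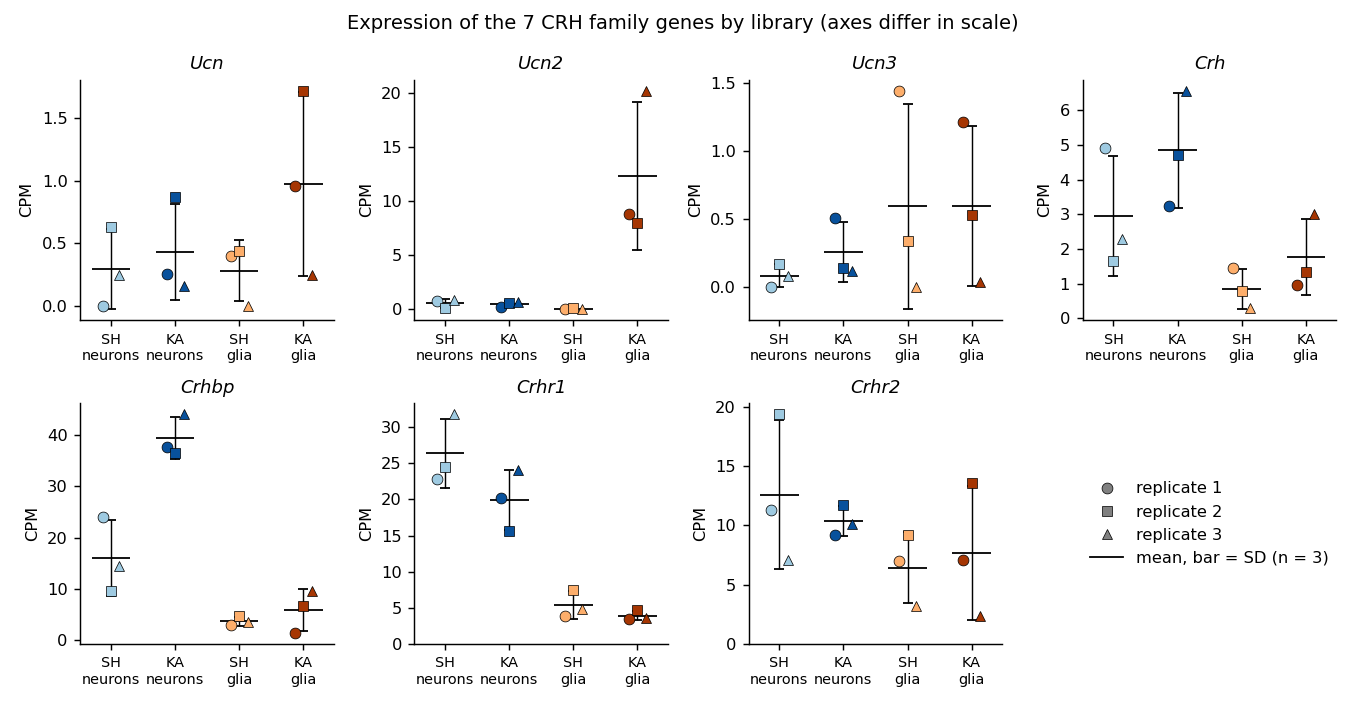
Level of each CRH family gene in CPM (vertical axes, which differ in scale) in the 3 libraries of SH neurons, KA neurons, SH glia and KA glia. Points are libraries with the shape giving the replicate, and the line and bar are the mean and SD of 3; Ucn2 in KA glia reached 7.95 to 20.2 CPM against at most 0.776 CPM in any library of the other groups.

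Ucn2, a ligand of Crhr2, was close to absent in the glia of SH mice and clearly present in the glia of KA mice, while in neurons it was low in both treatments. Ucn2 (ENSMUSG00000049699) has 1 exon block of 1155 bases in the GENCODE annotation at chr9:108986010-108987164 (GRCm38, plus strand). In SH glia, 0, 2 and 0 counts were assigned to it in replicates 1, 2 and 3, which is too low to judge a level. In KA glia, 101, 208 and 490 counts were assigned to it. These are 0, 0.0974 and 0 CPM in SH glia and 8.78, 7.95 and 20.2 CPM in KA glia. For the counts of 0, the exact 95% upper limit was 0.2965 CPM in SH glia replicate 1 and 0.1102 CPM in SH glia replicate 3. Every KA library was thus far above every SH library, and KA glia replicate 3 was the highest. The mean was 0.0325 ± 0.0562 CPM in SH glia and 12.3 ± 6.83 CPM in KA glia (SD, n = 3).

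Pooled over libraries, 799 counts in KA glia stood against 2 counts in SH glia, a ratio of 429 with an exact 95% interval of 118 to 3545 that covers counting error only. The fitted logFC was 8.36 (SE 1.23), and its size depends on how the fit treats the zeros. It ranged from 7.59 without SH glia replicate 3 to 11.05 without SH glia replicate 2, the library with both SH counts, and was 8.29 without the low-input libraries. In sorted pools such as these, a change in the share of cells that express a gene and a change in RNA per cell cannot be told apart.

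In neurons, Ucn2 was counted 12, 1 and 19 times in SH replicates 1, 2 and 3 and 2, 16 and 15 times in KA replicates. The corresponding levels were 0.726, 0.0422 and 0.776 CPM in SH and 0.171, 0.555 and 0.608 CPM in KA. The treatments overlapped, each with 1 low library. The logFC was -0.15 (SE 0.89, FDR 1.00), and the pooled ratio of KA to SH was 1.02 with an exact 95% interval of 0.610 to 1.72.

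The levels of Ucn2 in neurons and glia are set side by side without a test. In SH mice, pooled levels in neurons were 16.4 times those in glia (exact 95% interval 4.19 to 141), but the library with 1 count in neurons lay below the glial library with 2 counts, so that the fractions overlapped and no order is given. In KA mice every neuronal library was below every glial library, and the pooled ratio of neurons to glia was 0.0392 (0.0268 to 0.0556). Both intervals cover counting error only. Within the 3 KA pools, the Ucn2 level in neurons was 1.95%, 6.98% and 3.01% of that in glia of the same pool. For comparison, the summed astrocytic markers in KA neurons were 5.07% to 32.0% of those in KA glia, the microglial markers 4.62% to 7.39% and the oligodendrocytic markers 1.29% to 5.56%. The other lists were higher, with OPC at 5.67% to 12.06%, blood leukocyte at 15.91% to 30.75% and endothelial at 42.98% to 87.72%. Pericytic markers were at 35.83% to 96.6%, meningeal at 77.98% to 164.6% and choroid plexus at 104.6% to 220.0%. The part of RNA from other nuclei in the neuronal Ucn2 counts was not tested. The KA effect on Ucn2 in glia minus that in neurons was 8.51 on the log2 scale, given without a test.

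Markers of several cell types differed between KA and SH glia beside Ucn2. Summed over 5 oligodendrocytic markers, levels were 13170 to 26440 CPM in SH glia and 6662 to 11720 CPM in KA glia. Summed over 4 OPC markers, they were 1269 to 1948 CPM in SH glia and 499.7 to 811.1 CPM in KA glia. For astrocytic (1242 to 1873 CPM in SH, 908.8 to 1598 in KA), microglial (623.6 to 1442 in SH, 438.2 to 928.3 in KA), endothelial (5.47 to 27.7 in SH, 15.98 to 40.9 in KA), pericytic, choroid plexus, meningeal and blood leukocyte lists (20.6 to 39.2 in SH, 34.8 to 41.1 in KA), the summed levels overlapped. Single markers within these lists went both ways without overlap. Among 6 astrocytic markers, Gfap was 118.8 to 175.6 CPM in SH glia and 359.6 to 720.0 CPM in KA glia (FDR 0.546, with a replicate block 0.00142) and Aqp4 also lay higher in KA, while Slc1a3, Gja1 and Aldoc lay lower in KA. Aldoc was called without the block (177.6 to 348.3 CPM in SH, 46.6 to 131.6 CPM in KA, FDR 0.245). Among 6 microglial markers, P2ry12 fell from 63.6 to 229.3 CPM in SH to 21.1 to 40.4 CPM in KA (FDR 0.0826), and the other 5 overlapped. Of the 5 oligodendrocytic and 4 OPC markers, Cspg4 was called without the block (FDR 0.240). Of the defining markers, S100a8 of blood leukocytes was at 0 in all 3 SH glia libraries. It was also low in KA glia, at 0 to 0.371 CPM, and did not pass the filter on low counts. S100a9 was 0 to 0.341 CPM in SH and 0.494 to 0.7265 CPM in KA glia, without overlap. Other leukocyte markers were present in SH glia, with Lyz2 at 9.01 to 22.5 CPM in SH and 14.0 to 32.8 CPM in KA glia. The part of any of these cells in the Ucn2 values was not tested.

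The neighbours of Ucn2 lie close and on the same strand. Col7a1, a collagen gene, ends 1134 bases before Ucn2, and Pfkfb4, a regulator of glycolysis, starts 4613 bases after it, while no exon of another gene overlaps any of the 7 genes. Col7a1 was 7.24, 20.5 and 5.44 CPM in SH glia replicates 1, 2 and 3 and 27.6, 34.7 and 44.6 CPM in KA glia, so that KA lay above SH. Its logFC was 1.69 (SE 0.50, FDR 0.346), and with a replicate block the FDR was 0.00698. Pfkfb4 was 26.2, 28.4 and 46.2 CPM in SH glia and 45.7, 57.7 and 148 CPM in KA glia, with an overlap of the treatments, a logFC of 1.32 (SE 0.47, FDR 0.652) and an FDR of 0.0137 with the block. For each count of Col7a1 there were 0.319, 0.229 and 0.452 counts of Ucn2 in KA glia replicates 1, 2 and 3, against 0, 0.00475 and 0 in SH glia and 0.00165 to 0.0811 in the neuronal libraries. These ratios are a description, and those in SH glia rest on 2 counts of Ucn2. Reads that run on from Col7a1 into Ucn2 were not tested.

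Of 17257 protein-coding genes with a mean of at least 1 CPM, the 5 whose log2 CPM followed Ucn2 most closely over the 12 libraries were Ch25h (Pearson r 0.93), Cebpd (0.93), Col12a1 (0.91), Serpina3n (0.91) and Cacng5 (0.91). The points share libraries and groups, and these values are a description. Ch25h, which makes 25-hydroxycholesterol from cholesterol, had a mean of 1.22 CPM in SH glia and 46.9 CPM in KA glia. Serpina3n, a serine protease inhibitor known from reactive astrocytes, had 45.5 CPM in SH glia and 990.6 CPM in KA glia. Cebpd, a transcription factor of the acute phase response, had 49.0 and 195 CPM. In each of these 5 genes the KA glia libraries lay above the SH glia libraries and above the KA neuronal libraries. They were chosen for following Ucn2 over these same libraries, so that this like pattern adds no support. Serpina3n and Ch25h were also above SH in every KA neuronal library, which Ucn2 was not.

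**Figure D2:**
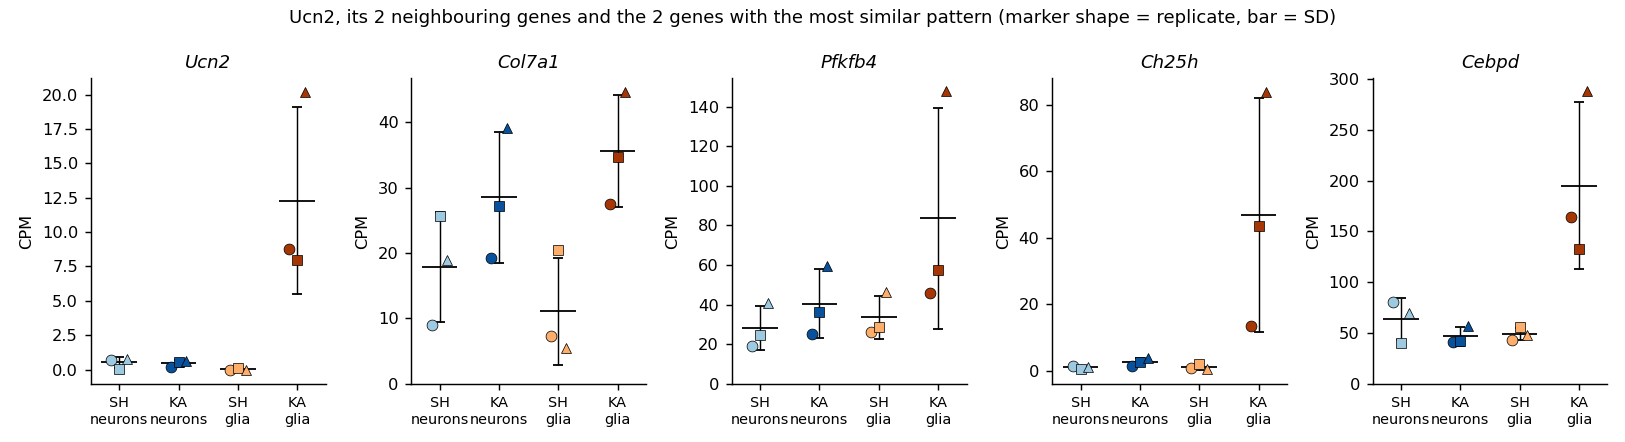
Levels in CPM (vertical axes, differing in scale) of Ucn2, its neighbours Col7a1 and Pfkfb4, and Ch25h and Cebpd, the closest in pattern, by library and group, with mean and SD of 3. The KA glia libraries of Ucn2 (7.95 to 20.2 CPM) stand apart from all others, whereas those of Col7a1 (27.6 to 44.6 CPM) share their range with KA neurons.

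Of the other 3 ligands, none was called changed by KA in either fraction, and Ucn and Ucn3 were close to the limit of counting. Crh (ENSMUSG00000049796, chr3:19693401-19695396, minus strand, 2 exon blocks), the peptide that starts the stress axis, was 4.90, 1.64 and 2.29 CPM in SH neurons replicates 1, 2 and 3 and 3.25, 4.72 and 6.56 CPM in KA neurons. The treatments overlapped through SH replicate 1. The logFC was 0.72 (SE 0.71, FDR 1.00). In glia, Crh was 1.45, 0.779 and 0.299 CPM in SH and 0.956, 1.34 and 3.01 CPM in KA, with a logFC of 1.11 (SE 0.74, FDR 1.00), and KA replicate 1 lay below SH replicate 1. This logFC was 0.49 without KA glia replicate 3, 1.82 without SH glia replicate 1 and 1.92 without the low-input libraries. The 5 genes closest in pattern to Crh were Plcxd1 (r 0.94), Pnoc (0.93), Npy (0.93), Asprv1 (0.93) and Penk (0.92), of which Pnoc, Npy and Penk encode neuropeptide precursors.

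Ucn (ENSMUSG00000038676, chr5:31138063-31138829, minus strand), a ligand of both receptors, was counted 0, 15 and 6 times in SH neurons and 3, 25 and 4 times in KA neurons. In glia it was counted 5, 9 and 0 times in SH and 11, 45 and 6 times in KA, equal to 0.402, 0.438 and 0 CPM and 0.956, 1.72 and 0.247 CPM. In both fractions the highest library was replicate 2 of KA, and the treatments overlapped. The logFC was 0.54 (SE 1.42, FDR 1.00) in neurons and 1.83 (SE 1.46, FDR 1.00) in glia. Both standard errors exceeded 1 on the log2 scale, and they hold counting error and the spread between pools together.

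Ucn3 (ENSMUSG00000044988, chr13:3940688-3945349, minus strand), a further ligand of Crhr2, was the least counted of the 7 genes, with 73 counts over all 12 libraries. It was counted 0, 4 and 2 times in SH neurons and 6, 4 and 3 times in KA neurons, and 18, 7 and 0 times in SH glia and 14, 14 and 1 times in KA glia. Replicate 3 was the lowest in both glial groups. The logFC was 1.45 (SE 1.67, FDR 1.00) in neurons and 0.02 (SE 1.54, FDR 1.00) in glia.

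Crhbp (ENSMUSG00000021680, chr13:95431371-95444924, minus strand, 7 exon blocks), the binding protein that takes up Crh and Ucn, was higher in the neurons of every KA pool than in those of any SH pool. It was 24.1, 9.53 and 14.4 CPM in SH neurons replicates 1, 2 and 3 and 37.7, 36.4 and 44.1 CPM in KA neurons. The means were 16.01 ± 7.41 and 39.4 ± 4.08 CPM (SD, n = 3), a 2.46-fold difference. The logFC was 1.30 (SE 0.50), with an unadjusted p of 0.0191 in edgeR's quasi-likelihood test and an FDR of 1.00, so that it was not called. With the replicate number as a block the logFC was 1.40 and the FDR 0.0784, and with the cell types fitted separately 1.27 and 0.178, both past the threshold. Libraries of the same replicate number deviated together from their group means in both fractions, although KA and SH pools of the same number held different mice.

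Among the 7 genes, Crhbp was the only one called in neurons with the block, where 3.05% of all genes tested were called, against 0 of 7 without it, where 0.340% were called. With edgeR 4's newer fit and with DESeq2, 0 of the 7 were called in neurons as well, and each tool gave 1 unadjusted p under 0.05. Crhbp was also the only one of the 7 whose KA and SH neuronal libraries did not overlap, which held for 9.72% of all genes tested. Summed over 9 interneuron markers, levels in neurons were 493.3 to 1016 CPM in SH and 681.9 to 728.3 CPM in KA, so that the sums overlapped. Within this list Npy was 11.2 to 50.3 CPM in SH and 53.2 to 69.2 CPM in KA neurons (logFC 1.36, FDR 1.00, with the block 1.73 and 0.0372), and Cck was 110.6 to 359.0 CPM in SH and 79.7 to 123.6 CPM in KA (logFC -1.06, FDR 1.00, with the block -0.88 and 0.189). The 5 meningeal fibroblast markers summed to 58.8 to 101.9 CPM in SH neurons and 32.5 to 48.1 CPM in KA neurons, with KA below SH. This fall lay mainly in Dcn, with means of 53.2 CPM in SH neurons and 18.6 CPM in KA neurons. Dcn was also higher in neurons than in glia (logFC 1.04, FDR 0.021). The other markers of the list overlapped. Means of Lum and Slc22a6 were lower in KA neurons, and those of Col1a1 (9.89 in SH, 14.9 CPM in KA) and Col1a2 (3.68 in SH, 5.04 CPM in KA) were higher. The part of either list in the Crhbp values was not tested.

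In glia, Crhbp was 2.89, 4.62 and 3.56 CPM in SH and 1.39, 6.58 and 9.51 CPM in KA. The lowest and the highest library were both KA, and the logFC was 0.67 (SE 0.51, FDR 1.00). The difference of the KA effect between fractions, glia minus neurons, was -0.63 (SE 0.71, FDR 1.00), so that a difference between neurons and glia was not shown.

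The genes closest in pattern to Crhbp were Chga (r 0.98), Crtac1 (0.97), Acsl4 (0.97), Scg2 (0.96) and Nrn1 (0.96). Chga and Scg2 encode granins, proteins of dense core vesicles in which peptides are stored. Chga had a mean of 156 CPM in SH neurons and 449.5 CPM in KA neurons, with no overlap. In all 5 genes the KA neuronal libraries lay above the SH neuronal libraries, while the glial libraries overlapped. The 5 were chosen for following Crhbp over these same libraries, so that a like pattern is a description and adds no support.

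**Figure D3:**
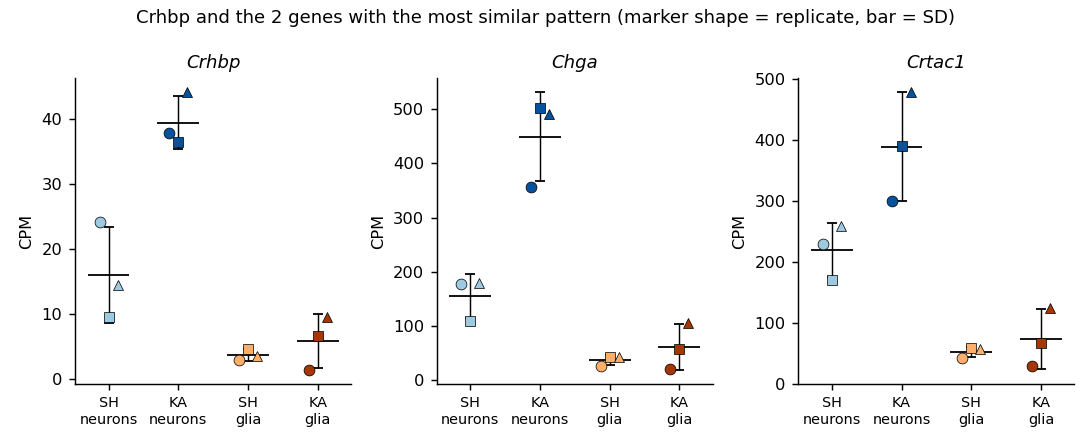
Levels in CPM (vertical axes, differing in scale) of Crhbp and of Chga and Crtac1, the genes with the highest correlation with it over 12 libraries, by library and group, with mean and SD of 3. In KA neurons Crhbp lay at 36.4 to 44.1 CPM, above the 9.53 to 24.1 CPM of SH neurons, and in glia the treatments overlapped.

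The receptors were counted in every library and neither was called changed by KA. Crhr1 (ENSMUSG00000018634, chr11:104132855-104175523, plus strand, 13 exon blocks), the receptor of Crh and Ucn, was 22.8, 24.5 and 31.9 CPM in SH neurons and 20.2, 15.6 and 24.0 CPM in KA neurons. The logFC was -0.40 (SE 0.34, FDR 1.00), with an overlap between KA replicate 3 and SH replicate 1. In glia it was 3.78, 7.50 and 4.78 CPM in SH and 3.48, 4.63 and 3.62 CPM in KA, with a logFC of -0.45 (SE 0.35, FDR 1.00). The values of logFC were thus negative in both fractions, and within the spread of the pools.

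Crhr2 (ENSMUSG00000003476, chr6:55090049-55133016, minus strand, 12 exon blocks), the receptor of the urocortins, was 11.3, 19.4 and 7.10 CPM in SH neurons and 9.22, 11.7 and 10.1 CPM in KA neurons. In glia it was 6.99, 9.15 and 3.17 CPM in SH and 7.04, 13.6 and 2.35 CPM in KA. In both glial groups replicate 2 was the highest and replicate 3 the lowest. The logFC was -0.28 (SE 0.56, FDR 1.00) in neurons and 0.26 (SE 0.56, FDR 1.00) in glia, and the second was -0.53 without the low-input libraries. The genes closest in pattern were Slc44a4 (r 0.96), Ntsr1 (0.93), Fgf16 (0.93), Btla (0.92) and Zp3r (0.91) for Crhr2. For Crhr1 they were A830018L16Rik, Adgrl2, Doc2b, Drp2 and Syndig1, each with r of 0.99.

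**Figure D4:**
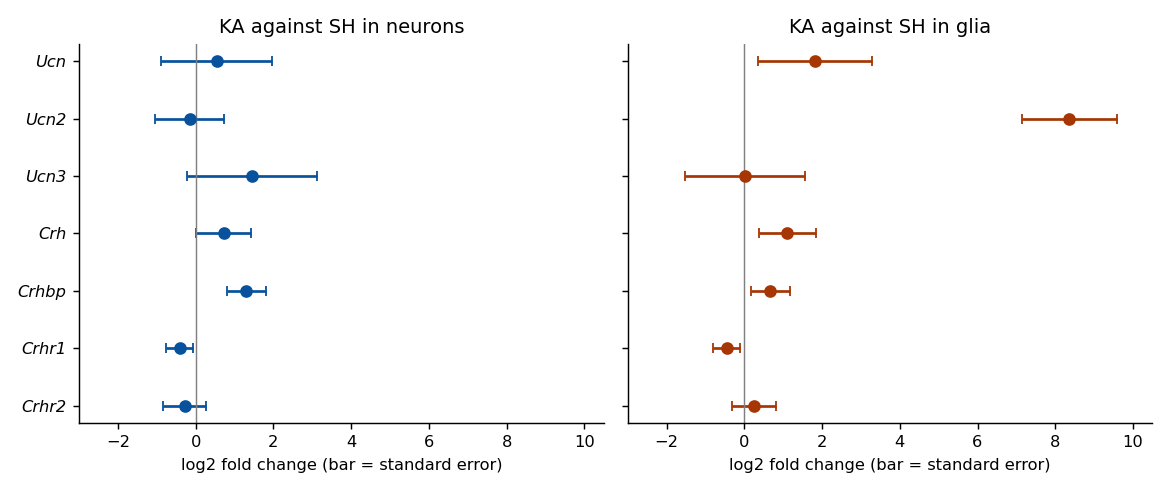
Fitted logFC of KA over SH (horizontal axis, log2 scale, bars are 1 standard error) for the 7 genes in neurons and in glia, with 3 pools per group. Ucn2 in glia (8.36) lies apart from the others, which run from -0.45 to 1.83, and Crhbp in neurons is at 1.30.

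Counted over the genes, 0 of the 6 other than Ucn2 were called in glia by edgeR's quasi-likelihood test, where 0.747% of all genes were called, and 0 had an unadjusted p under 0.05. With the block, where 7.64% of all genes were called in glia, and with DESeq2, 0 of the 6 were called too. The newer edgeR fit gave 1 unadjusted p under 0.05 among the 6. KA and SH glial libraries of each of the 6 overlapped, while those of 6.61% of all genes did not. For the difference of the KA effect between fractions, 0 of the 6 genes were called, as were 0% of all 37598 genes in this fit, of which 502 had an unadjusted p under 0.05. DESeq2 called 39 genes for the difference and the fit with a block by pool 177, with 0 of the 6 in either.

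Across both treatments, Crhr1, Crhbp and Crh were higher in neurons than in glia. These were 3 of the 6 genes other than Ucn2, while 11.6% of all genes tested were called higher in neurons. This fit held no block for the pool that neurons and glia share. With the pool as a block, 4 of the 6 were called, Crhr2 among them, while 7394 of all 37598 genes were called higher in neurons. Crhr1 was 15.6 to 31.9 CPM in the 6 neuronal libraries and 3.48 to 7.50 CPM in the 6 glial ones, with a logFC of neurons over glia of 2.32 (SE 0.26, FDR 9e-06). For Crhbp the logFC was 2.42 (SE 0.37, FDR 0.000139). For Crh it was 1.64 (SE 0.52, FDR 0.0352), with every neuronal library above every glial library of the same treatment, but the FDR was 0.0568 with another scaling, 0.0699 without the filter on low counts and 0.0798 without the low-input libraries, all above the threshold. It was also above 0.05 on leaving out any of 8 of the 12 libraries, namely SH neurons 1, KA neurons 2 and 3, all SH glia and KA glia 1 and 2, with logFC of 1.36 to 1.96 over the 12 fits. With the pool as a block, the FDR of Crh was 0.00276. Crhr2 had a logFC of 0.70 (SE 0.40, FDR 0.301), and of 0.85 with an FDR of 0.0300 when the pool was a block. Ucn (-0.51, SE 1.02, FDR 0.811) and Ucn3 (-1.95, SE 1.16, FDR 0.333) were not called. Ucn2 was not tested here, since this comparison rests on its glial values. Neuronal markers were also counted in glia, with sums of 384.5 to 1333 CPM in SH and 286.3 to 1154 CPM in KA. In SH mice, mean levels in neurons were 4.93 (Crhr1), 4.34 (Crhbp), 3.50 (Crh) and 1.96 (Crhr2) times those in glia. For the 8 neuronal markers this ratio was 2.78 to 8.31. The part of RNA from neuronal nuclei in the glial values of the 7 genes was not tested.

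Levels of different genes were compared per kilobase of exon (CPM per kb). In SH neurons the order of the means was Crhr1 (10.7), Crhbp (8.89), Crhr2 (2.46), Crh (2.23), Ucn (0.580), Ucn2 (0.446) and Ucn3 (0.0564). Only Crhbp and Crhr2, among neighbours in this order, did not overlap in their libraries. In KA neurons the order was Crhbp (21.9), Crhr1 (8.11), Crh (3.67), Crhr2 (2.03), Ucn (0.851), Ucn2 (0.385) and Ucn3 (0.174), and the neighbours from Crhbp down to Ucn did not overlap, while Ucn, Ucn2 and Ucn3 did.

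In SH glia, the order per kb was Crhr1 (2.18), Crhbp (2.05), Crhr2 (1.26), Crh (0.638), Ucn (0.556), Ucn3 (0.403) and Ucn2 (0.0281), with all neighbours overlapping. In KA glia, Ucn2 stood first (10.7, from 6.89 to 17.5), above Crhbp (3.24, from 0.772 to 5.29) without overlap. It was followed by Ucn (1.93), Crhr1 (1.59), Crhr2 (1.50), Crh (1.34) and Ucn3 (0.404), neighbours that overlapped. By these means Ucn2 was the first of the 7 in KA glia. Its place as the last in SH glia is not established, since it was too low to judge there and the neighbours overlapped. Its preferred receptor Crhr2 was present in both, at 6.44 ± 3.03 CPM in SH and 7.67 ± 5.66 CPM in KA glia (SD, n = 3).

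**Figure D5:**
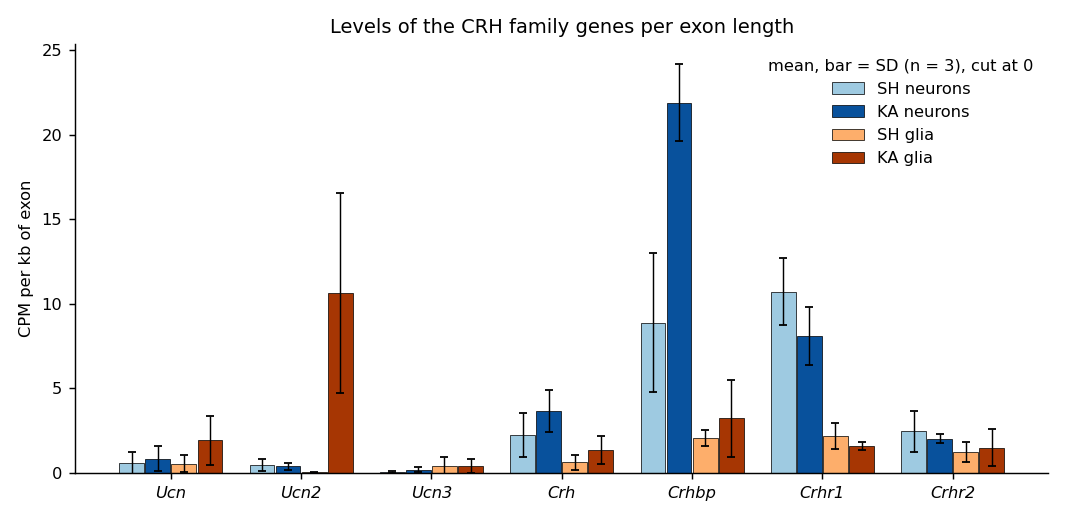
Mean level per kilobase of exon (vertical axis, CPM per kb) of the 7 genes in the 4 groups, with bars for the SD of 3 libraries, cut at 0. Crhr1 and Crhbp lead in SH neurons (10.7 and 8.89), Crhbp in KA neurons (21.9) and Ucn2 in KA glia (10.7).

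The genes on which the peptides and receptors depend were taken as lists. Of 30 genes of CRH receptor signalling (G proteins, adenylyl cyclases, protein kinase A, arrestins and phosphodiesterases), 0 were called in neurons or glia. The median logFC was -0.01 in neurons and -0.37 in glia, beside 0.00 and 0.14 for all genes. With the block, 1 gene rose (Prkar2a) and 2 fell (Mapk3 and Arrb2) in neurons, and 7 fell in glia (Adcy5, Adcy8, Prkaca, Prkacb, Rapgef3, Mapk3 and Grk3), where the block called 3.05% of all genes in neurons and 7.64% in glia, and 1566 of the 37598 genes fell in glia. Rapgef3, a guanine nucleotide exchange factor that cyclic AMP activates directly, went from a mean of 187 CPM in SH glia to 69.6 CPM in KA glia (logFC -1.42, FDR 0.287, with the block 0.00423).

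Of 8 genes of peptide precursor processing (convertases, the trimming and amidating enzymes Cpe and Pam, the Pcsk1 inhibitor Pcsk1n and the Pcsk2 chaperone Scg5), 0 were called in either fraction, with medians of 0.05 in neurons and -0.26 in glia. With the block, Pcsk1, Furin and Pcsk5 rose and Pcsk1n and Scg5 fell in neurons, and Pcsk1 and Pcsk5 rose and Pcsk2, Pcsk1n, Scg5 and Cpe fell in glia. These were 5 of 8 in neurons and 6 of 8 in glia, beside 3.05% and 7.64% of all genes with the block. Pcsk1, a convertase that cleaves prohormones, was 23.9 to 35.8 CPM in SH neurons and 61.4 to 117.9 CPM in KA neurons (logFC 1.46, FDR 0.703, with the block 0.0183).

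Among other ligands of class B1 receptors, 10 of 14 passed the filter, and Calca rose in glia, with 0 called in neurons. Of all genes, 0.747% were called in glia and 0.340% in neurons. Calca, the precursor gene of calcitonin and CGRP, was 0.0896 to 0.487 CPM in SH glia and 3.25 to 9.02 CPM in KA glia (logFC 4.58, SE 0.80, FDR 0.0324). The median logFC of the 10 was 0.28 in neurons and 0.70 in glia. Among 13 other class B1 receptors, Gipr, the receptor of the incretin GIP, rose in neurons from 5.93 to 10.8 CPM in SH to 51.1 to 215 CPM in KA (logFC 3.81, SE 0.73, FDR 0.0742), and 0 were called in glia. With the block, which called 7.64% of all genes in glia, Adcyap1r1, the PACAP receptor, fell in glia (logFC -0.95 without it, FDR 0.112 with it). The medians were 0.41 and -0.06.

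Of 10 partners of the stress axis (hormone precursors and receptors, corticosteroid receptors and their targets), 0 were called in neurons and 1 in glia, beside 0.340% and 0.747% of all genes. Tsc22d3, a gene induced by glucocorticoids, fell in glia from 95.2 to 145 CPM in SH to 15.9 to 53.5 CPM in KA (logFC -1.80, SE 0.41, FDR 0.124). With the block, which called 3.05% of all genes in neurons and 7.64% in glia, Nr3c1, the glucocorticoid receptor, fell in both fractions (FDR 0.211 in neurons and 0.247 in glia), Avpr1a, a vasopressin receptor, rose in glia (FDR 0.235) and Hsd11b1, the enzyme that regenerates active corticosterone, fell in glia. Hsd11b1 went from a mean of 42.9 CPM in SH glia to 14.1 CPM in KA glia (FDR 0.00474, without the block 0.287). The medians of this list were -0.04 in neurons and -0.14 in glia.

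The nearest protein-coding neighbours of the other 6 genes were not called in either fraction without the block. With it, Mpv17, 1824 bases from Ucn, fell (logFC -0.86, FDR 0.202) and Akr1c14, 103661 bases from Ucn3, rose (logFC 1.46, FDR 0.188) in glia. The block called 7.64% of all genes in glia. The neighbours lay between 432 bases (Trim54, from Ucn) and 261657 bases (Cp, from Crh) away. Their KA and SH libraries overlapped in both fractions, and S100z, the nearest on 1 side of Crhbp, did not pass the filter on low counts.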

How the data were processed

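Counts in 12 mRNAseq libraries of sorted hippocampal nuclei were analysed, 3 pools per treatment and cell type. The authors trimmed reads with Trim Galore 0.4.3 (version per the submitters' processing notes), aligned them to mm10 with Rsubread, counted uniquely mapped reads per gene with featureCounts and GENCODE M16, and deposited the raw counts without normalization. Counting at default settings ignores strand, and reads shared by exons of different genes are left out. Symbols and positions came from GENCODE M21 (GRCm38), promoters from RefSeq (GRCm38.p6). Genes without a symbol (105 of 53379) and genes failing filterByExpr (minimum count 10, minimum total 15) were left out.

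The 12 libraries were fitted together in edgeR 4.0.16 (R 4.3.3, limma 3.58.1) with TMM scaling, 4 group means and glmQLFit with legacy=TRUE. The paper describes separate treatment of neurons and glia, so that its calls can differ from those given here. FDR is the Benjamini-Hochberg adjusted p over 37598 genes, and SE was derived as |logFC| divided by the root of F. The 7 genes and all lists were chosen with earlier results of these data known. Ucn2 was therefore left out of the tests that use its glial values, and of that between neurons and glia although it had been planned. Pools are the replicates, with 4 mice in each pool numbered 1 and 2 mice in every other pool.

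As a check of pairing, deviations of same-numbered KA and SH libraries from their group means were correlated across genes, with r of 0.399, 0.264 and 0.551 in neurons and 0.457, 0.543 and 0.764 in glia, so that the number was also fitted as a block. Neurons and glia of 1 pool come from the same mice. The main fit ignores this pairing, and the block by pool was an alternative fit for comparisons between fractions. Alternatives were other scalings, filters, DESeq2 1.42.0, edgeR with legacy=FALSE, separate fits, no low-input libraries and each library left out. Fits were tested on simulated data.

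Genes named besides the 7 are list members called at the FDR threshold with or without a block, nearest protein-coding neighbours, and genes close in pattern. The last are the 5 genes with the highest Pearson r of log2 CPM (prior count 2) with each of the 5 genes that reached 1 CPM in a group. Cell type markers were also named for their levels, and several of them, such as Aqp4, S100a9 and Lyz2, were not called with or without the block. Rapgef3, Pcsk1 and Hsd11b1 were given values after theirs were seen. RRBS libraries were not used here. Plots were made in Python 3.11.15 using matplotlib 3.10.9.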

Additional observations from a re-analysis of the deposited data

How the results depend on the processing

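Low counts limited Ucn, Ucn3 and, outside KA glia, Ucn2, whose libraries often held under 20 counts. These counts did not simply follow depth. SH glia replicate 3, the library with the highest total count (40364768), held 0 counts of each of these genes. With 3 pools per group, 1 library moved several values. With the replicate block, 1 of the 7 genes (Crhbp) was past the threshold in neurons, as with separate fits, and the block changed no other call of the 7 for KA against SH. The block by pool turned the difference for Crhr1 to 0.01. Crhr1 in KA glia was 5.12 CPM without TMM factors.

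Directions that turned belonged to values not called. In neurons, logFC of Ucn2 was 0.02 with legacy=FALSE and 0.13 with the block, and on leaving out 1 library it ran from -0.70 to 0.32 (Ucn -0.51 to 1.72, Crhr2 -0.57 to 0.18). In glia, Ucn3 was -0.06 without a filter and -0.99 to 2.03 on leaving out 1 library, and Crhr2 was -0.53 without low-input libraries and -0.55 to 0.68. For the difference, Ucn3 was 0.24 and Crhr2 -0.24 without low-input libraries, and on leaving out 1 library the ranges were -2.49 to 0.55 (Ucn3), -0.24 to 1.09 (Crh), -0.23 to 0.26 (Crhr1), -0.25 to 0.97 (Crhr2) and 7.73 to 11.19 (Ucn2). Neurons against glia, Ucn2 ran from -0.97 to 0.89. In glia, Ucn2 ran from 7.59 to 11.05. The causes were not tested.

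Counts over all genes past the threshold, used as background, depended on the fit. In neurons 128 became 465 with 10 counts in every library, 253 with legacy=FALSE, 456 with DESeq2, 1147 with the block, 656 with separate fits, 79 without low-input libraries, 18 at FDR 0.05 and 11 to 234 on leaving out 1 library. In glia 281 became 1203, 515, 1010, 2871, 146, 41, 62 and 83 to 554 under the same changes. For the difference 0 became 9 without a filter, 15 with 10 counts in every library, 39 with DESeq2, 177 with the block by pool and up to 3 on leaving out 1 library. For neurons against glia 6964 became 11092 with the block, 4638 without low-input libraries and 11109 at FDR 0.25. With 10 counts in every library, Ucn, Ucn2 and Ucn3 were not tested. With RLE scaling the median logFC of all genes for neurons against glia moved from -0.15 to -0.30.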
